A study of Caenorhabditis elegans with 2 samples.

Results

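The genes that encode the proteasome and the segregase CDC-48 were examined in a map of sites recovered with the SMAD protein DAF-8 in Caenorhabditis elegans. They were chosen by name from the Ensembl annotation, as every protein-coding gene called pas-, pbs-, rpt- or rpn- and the pair cdc-48.1 and cdc-48.2. This gave 35 of 19985 protein-coding genes: 7 pas genes, 7 pbs genes, 6 rpt genes, 13 rpn genes and the 2 cdc-48 genes. For each gene the strongest peak was taken whose summit lay from 1000 bp upstream to 250 bp downstream of a transcript start, called the promoter window below.

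Sites were mapped by chromatin immunoprecipitation with sequencing (ChIP-seq) in whole L4 larvae, 47 hours old, brought into step by bleaching and starvation as L1 larvae. All worms were of strain OP790, which carries the transgene wgIs790, a copy of daf-8 with a tag made of TY1, EGFP and 3xFLAG, together with a working unc-119 gene in an unc-119 (tm4063) mutant background. The precipitating antibody was against GFP. There was 1 group of 2 biological replicates, with no second genotype, age or treatment; the labels do not say how the replicate cultures were separated, and neither an untagged strain nor the control experiment that the labels name was analysed here. Whole worms mix all tissues, so the cells in which a site was occupied cannot be told from these data.

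The proteasome is the large protease that degrades proteins marked with ubiquitin. Its core particle stacks rings of alpha subunits (pas genes), which gate the entry, and rings of beta subunits (pbs genes), some of which cut the substrate. Its regulatory particle holds a ring of ATPases (rpt genes) that unfold substrates, and non-ATPase subunits (rpn genes) that bind and remove ubiquitin. CDC-48, known as p97 or VCP in mammals, is a hexameric AAA ATPase that pulls ubiquitin-marked proteins out of complexes and membranes and hands many of them to the proteasome; worms have the paralogs cdc-48.1 and cdc-48.2. In worms, proteasome subunit genes are known to be induced together by the bZIP factor SKN-1 when proteasome activity falls. DAF-8 is a receptor-regulated SMAD of the TGF-beta pathway that keeps larvae from entering the dauer stage, and SMAD proteins bind short sequences with the core GTCT.

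The strongest site of these genes lay just upstream of cdc-48.1, and the same stretch upstream of its paralog cdc-48.2 is shown for comparison. Each of the first pair of sequences below runs from 310 to 11 bp upstream of the gene's start and is written 5′ to 3′ on the strand of the gene. Capitals mark GTCT or its reverse complement AGAC. The cdc-48.1 stretch is chrII:10563418-10563717 on the minus strand and the cdc-48.2 stretch is chrII:8138186-8138485 on the plus strand (RefSeq genome sequence, WBcel235, the assembly also called ce11).
cdc-48.1: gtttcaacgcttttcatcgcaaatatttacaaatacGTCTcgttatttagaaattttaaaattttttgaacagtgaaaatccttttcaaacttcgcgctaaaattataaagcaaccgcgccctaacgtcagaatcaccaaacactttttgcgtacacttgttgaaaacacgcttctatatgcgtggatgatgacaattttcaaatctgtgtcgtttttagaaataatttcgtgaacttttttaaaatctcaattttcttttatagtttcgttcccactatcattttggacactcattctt
cdc-48.2: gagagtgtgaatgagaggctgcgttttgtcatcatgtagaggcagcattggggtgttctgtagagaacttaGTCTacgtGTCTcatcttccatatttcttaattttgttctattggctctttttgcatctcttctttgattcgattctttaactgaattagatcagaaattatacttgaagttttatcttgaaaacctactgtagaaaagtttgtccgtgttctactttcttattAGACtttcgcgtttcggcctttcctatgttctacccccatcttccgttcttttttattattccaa
The bound stretch of cdc-48.1 held 1 such match, away from the summit, and the stretch of cdc-48.2 held 3. The 101 bases centred on the cdc-48.1 summit (chrII:10563518-10563618, minus strand) are shown next, with capitals now marking core forms of the sequence that SKN-1 binds, namely GTCAT, and likewise ATCAT, each on either strand, so that on the printed strand ATGAC is the reverse complement of the former and ATGAT that of the latter.
cdc-48.1 summit: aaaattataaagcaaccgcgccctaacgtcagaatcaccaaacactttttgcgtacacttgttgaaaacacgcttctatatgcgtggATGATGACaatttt
The marked run holds 1 ATGAT and 1 ATGAC that overlap, and no GTCT or AGAC lies within 50 bp of this summit. The same 8 bases stand once, on the other strand, in the cdc-48.2 stretch printed above, so the run was not particular to the bound paralog. Over all genes with a ranked promoter peak, GTCAT on either strand was within 50 bp of the summit in 14.03% and ATCAT in 22.2%, beside 6 and 9 of the 30 peaks of the genes described here (20% and 30%). The last pair compares the only thresholded peak among the CDC-48 cofactor genes described below, at ubxn-3 (chrII:220260-220360, minus strand), with the weak peak of cdc-48.2 (chrII:8137535-8137635, plus strand), in 101 bases centred on each summit and with capitals for GTCT or AGAC.
ubxn-3 summit: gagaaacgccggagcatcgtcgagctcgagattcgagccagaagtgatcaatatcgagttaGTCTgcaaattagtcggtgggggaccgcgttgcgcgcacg
cdc-48.2 summit: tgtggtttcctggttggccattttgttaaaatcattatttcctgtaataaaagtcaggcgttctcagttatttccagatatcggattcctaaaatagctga
The ubxn-3 window held 1 GTCT and 1 GCGCGC at 56.4% G and C, and the cdc-48.2 window held neither at 35.6%, with 1 ATCAT.

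Of the 35 genes, only cdc-48.1 had a peak that the authors kept after thresholding by IDR, the irreproducible discovery rate, which estimates how many peaks of that rank or better would not recur between replicates (kept at 0.01 or less). All values are from the list that compares the 2 true replicates unless another list is named, and the signal is the authors' value per peak. The share was 1 of 35, or 2.86%, beside 0.49% of all protein-coding genes (98 of 19985) and 0.636% of those with any ranked peak in the window. None of the 33 proteasome subunit genes had such a peak, which allows a share of up to 9.09% (3 counts of 33). That limit is approximate and counts the genes as independent. It lies above the share of all genes, so neither a lower share nor a higher one up to the limit was detectable. With 1 group, 2 replicates and no control sample, the samples allow no test, and the values below are descriptions of these lists.

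The cdc-48.1 peak had a signal of 112 and an IDR of 0.000705, at chrII:10563406-10563729. Its summit lay 161 bp upstream of the gene's only annotated start, between genes, and no other gene's promoter window held it. It ranked 30 of 101032 ranked peaks by signal, and 13 of the 98 genes with a thresholded promoter peak, and 99.9% of the 15398 genes with any ranked promoter peak had a lower value. Peaks just as close to the start stood in the lists of both replicates, with summits at -160 bp from the start in replicate 1 and -178 bp in replicate 2. Their strengths differed, with a signal of 35.7 in replicate 1 and 79.0 in replicate 2, a mean of 57.3 ± 30.6 (SD, n = 2). On its own, replicate 2 gave an IDR of 3.25e-04 and a thresholded peak, whereas replicate 1 gave an IDR of 0.595 and none. The pooled list of both replicates kept the peak at an IDR of 3.76e-04. The call therefore rested on replicate 2 where replicates were taken alone: replicate 1 called 0 of the 35 genes (0.15% of all genes), replicate 2 called 1 (0.18%) and the pooled list 1 (0.59%).

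The paralog cdc-48.2 had only a weak peak. Its strongest promoter peak, at chrII:8137423-8137746, had a signal of 13.7 at an IDR of 0.827, the highest IDR in the list, with 5.43 in the first and 8.13 in the second compared list, the latter from a summit 152 bp away. Its summit lay at -911 bp from the start and nearer to ctns-1, and 15.7% of genes with a peak had a lower signal. In both compared lists the cdc-48.1 peak was the stronger of the pair.

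Beyond its promoter, cdc-48.1 held further peaks along its body. Within 5000 bp of the start there were 18 ranked peaks, 4 of them above the median promoter signal of all genes (22.5), and the promoter peak was the only thresholded one. The next strongest lay 1926 bp downstream of the start with a signal of 51.4 at an IDR of 0.0727, and another lay 3529 bp downstream, past the annotated end of the gene, with 45.2 at an IDR of 0.0699. A peak of 36.5 at 2556 bp downstream had its summit inside C06A1.8, a snoRNA gene in the body of cdc-48.1; the second snoRNA gene of cdc-48.1, C06A1.9, lay 504 bp from the promoter summit. Within 5000 bp of the cdc-48.2 start there were 11 ranked peaks, 1 of them above 22.5, with a median of 12.4 and a highest signal of 28.2.

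**Figure D1:**
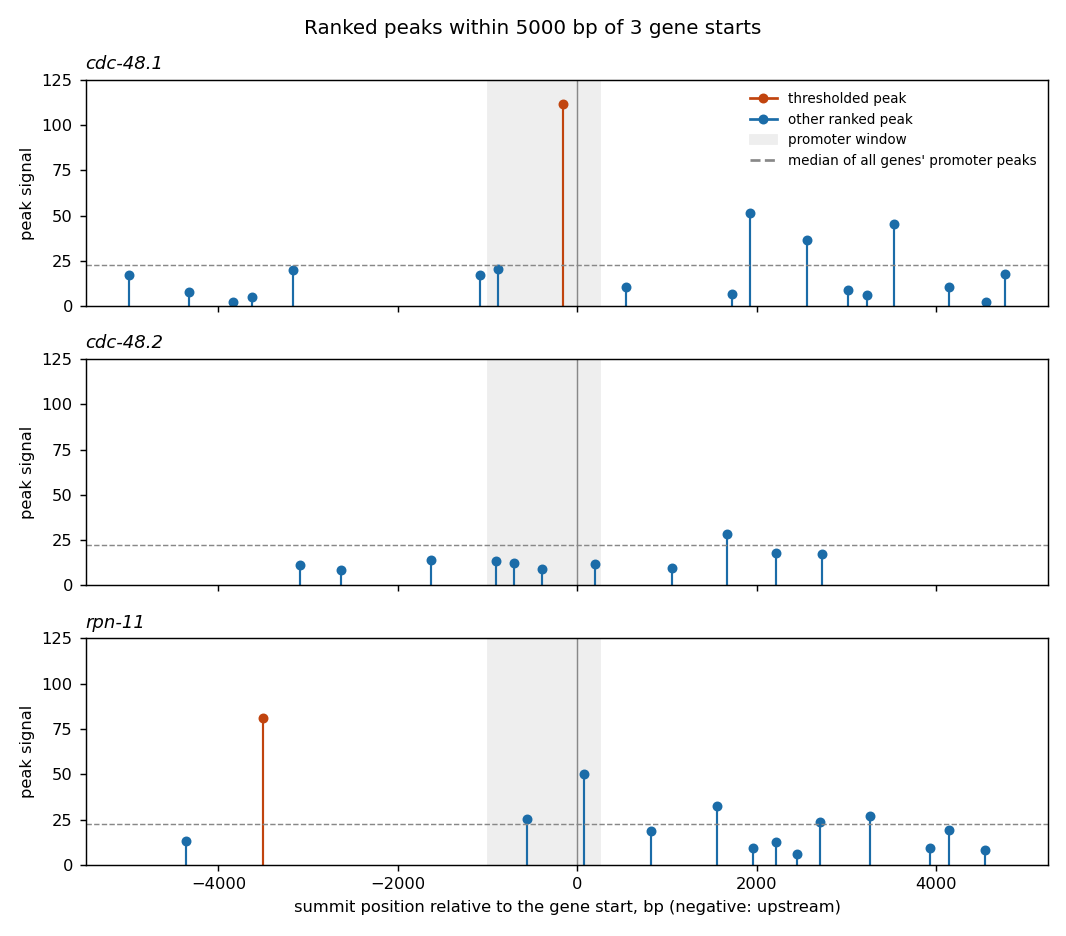
Signal (deposited value, linear axis) of every ranked peak within 5000 bp of the starts of cdc-48.1, cdc-48.2 and rpn-11, by the distance of its summit from the start; the grey band is the promoter window and the dashed line the median of all genes with a promoter peak, 22.5. The cdc-48.1 promoter peak reaches 112, no peak around cdc-48.2 passes 28.2, and the thresholded peak near rpn-11 lies outside the window, 3507 bp upstream of the start, with 80.9.

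The subunit genes had weaker peaks that did not pass. Of the 33, 28 had any ranked peak in the window (84.8%, beside 77.0% of all genes), with a median signal of 28.2 and a range from 6.28 to 49.9. Over all genes with a ranked promoter peak the median was 22.5, with quartiles of 16.5 and 29.4. Of the 28 subunit peaks, 13 were above the upper quartile of all genes (46.4%) and 7 below the lower quartile. The spread among the subunits thus ran from the low end of the genome to values that 98.1% of genes with a peak did not reach. The median IDR over the 30 peaks of all 35 genes was 0.626, beside 0.618 over all genes, and 10 of the 30 were at the highest IDR of the list (33.3%, beside 32.3%).

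**Figure D2:**
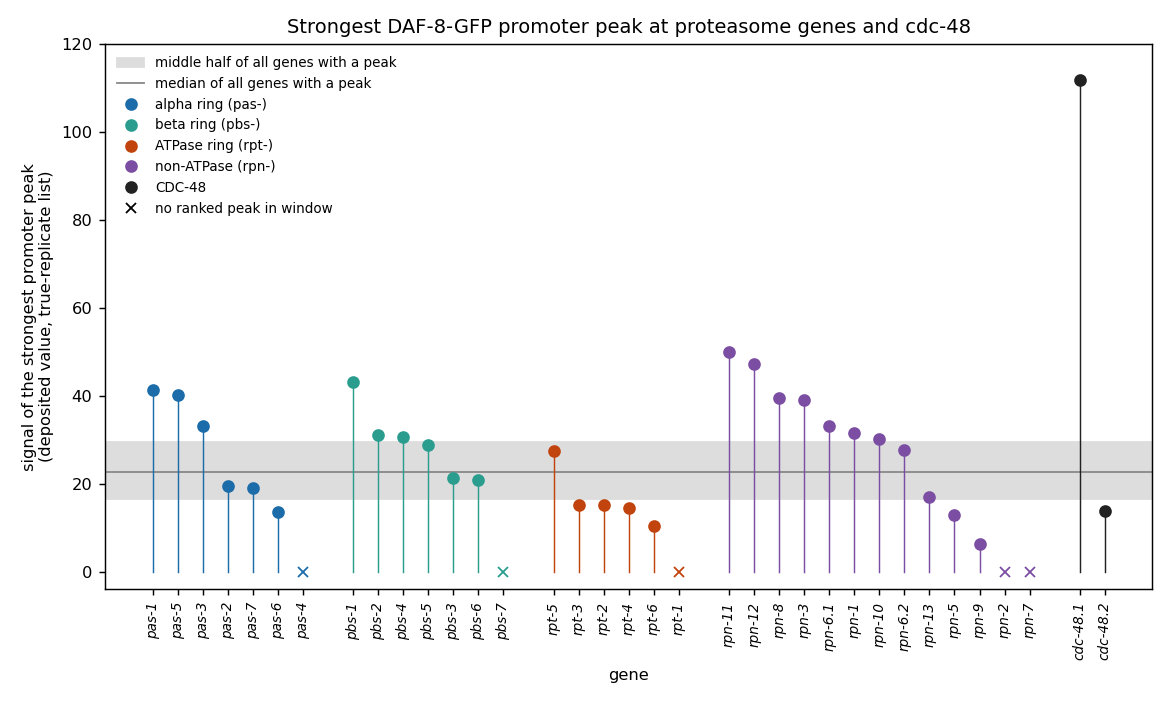
Signal of the strongest promoter peak (deposited value, linear axis) of each of the 35 genes, ordered by signal within each group of subunits; crosses are genes with no ranked peak in the window, the grey band spans the quartiles of all genes with a peak, 16.5 to 29.4, and the line is their median, 22.5. cdc-48.1 stands at 112, the highest subunit gene, rpn-11, at 49.9, and 4 of the 5 ATPase genes with a peak lie below the band.

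Among the non-ATPase genes, 11 of 13 had a ranked peak, with a median signal of 31.6, and 7 of the 11 were above the upper quartile of all genes. The highest was rpn-11, the deubiquitinase of the proteasome lid that releases ubiquitin from substrates, with a signal of 49.9 at an IDR of 0.0763 (chrII:4044306-4044629). The 2 compared lists gave it almost the same value, 22.8 and 22.7, with a mean of 22.8 ± 0.0452 (SD, n = 2). Its summit lay in the rpn-11 untranslated region, 78 bp downstream of a start. It was the only subunit gene with a peak at an IDR of 0.1 or less, so that with cdc-48.1 the limit was met by 2 of the 35 genes, or 5.71%, beside 2.47% of all genes. At 0.05 it was met by cdc-48.1 alone, 1 of 35 or 2.86%, beside 1.42% of all genes. A thresholded peak with a signal of 80.9 lay 3507 bp upstream of the rpn-11 start, outside the window, and its nearest start was that of K07D4.2 at 2557 bp. Besides cdc-48.1, no other of the 35 genes had a thresholded peak within 5000 bp of its start. The share of all genes with such a peak at that distance was not counted, so this does not mark the group.

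The second was rpn-12, a lid subunit, with 47.2 at an IDR of 0.167 and 19.6 and 20.2 in the 2 compared lists (chrII:11652166-11652489). Its summit lay at -796 bp from the rpn-12 start but inside a coding exon of the divergent gene rad-23, whose product shuttles ubiquitin-marked proteins to the proteasome; rad-23 itself had no summit in its own promoter window. The lid genes rpn-8 and rpn-3 followed, and their values differed between the lists. rpn-8 had 39.4, with 9.31 in the first list, from a summit 143 bp away, and 30.03 in the second. rpn-3 had 39.0 at -659 bp from its start, with 6.98 and 34.1. The strongest rpn-3 promoter peak in replicate 1's own list, 17.003, lay at another place, -252 bp from the start. Both IDRs were high, at 0.571 and 0.677. Their summits lay in coding exons of the divergent neighbours mrps-6, a mitochondrial ribosomal protein gene, and hsp-110, a chaperone gene.

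The remaining rpn genes ranged widely. rpn-6.1, a lid subunit whose raised level is known to increase proteasome activity in worms, had 33.2 with its summit 69 bp upstream of its start and 20 bp upstream of the divergent F57B9.1. Its paralog rpn-6.2 had 27.6. The base scaffold gene rpn-1 had 31.6 and the other scaffold gene, rpn-2, had no ranked peak in any of the 4 lists. The ubiquitin receptor genes rpn-10 and rpn-13 had 30.2 and 16.998. The lowest was rpn-9 with 6.28, where the paired peak in the first list (15.3) had its summit 239 bp away from the summit in question. rpn-7 had no peak in any list.

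The ATPase genes were the weakest group. All 6 rpt genes encode subunits of the ring that unfolds substrates. Of them, 5 had a ranked peak, with a median of 15.1, and 4 of these 5 were below the lower quartile of all genes. The highest was rpt-5 with 27.3 (7.41 and 20.5 in the compared lists), in a coding exon of the divergent rad-8. rpt-3 had 15.2, rpt-2 15.1, rpt-4 14.4 and rpt-6 10.4, and all 4 were at the highest IDR of the list. rpt-1 had no ranked peak in this list, but a peak of 9.61 in the pooled list and of 11.3 in replicate 2. No difference between subunit groups was tested. The median of the ATPase genes was below that of all genes under each setting tried except 2: the wider window, where it was 27.8 beside 25.9 for all genes and 30.2 for the non-ATPase genes, and replicate 1 alone, where 1 ATPase gene had a peak, at 14.2.

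In the core particle the alpha and beta rings resembled each other. The pas genes had a ranked peak in 6 of 7 and a median of 26.3, led by pas-1 with 41.2 at an IDR of 0.193 (22.1 and 17.3 in the compared lists) and pas-5 with 40.1 at 0.156 (18.2 and 22.4). The pas-1 summit lay at -591 bp from its start in a coding exon of rpoa-12, a gene 106 bp upstream on the same strand, and the pas-5 summit lay between genes, 437 bp upstream. The lowest was pas-6 with 13.5, and pas-4 had no peak in any list. The pbs genes had a ranked peak in 6 of 7 and a median of 29.6, led by pbs-1 with 43.2 at an IDR of 0.112 (20.5 and 22.3) in a coding exon of K08D12.3, and by pbs-2 with 31.2. That pbs-1 summit lay at -863 bp from the start, but the replicates' own lists had their strongest pbs-1 peaks nearer to it. They were at -179 bp in replicate 1 (20.7) and at -134 bp in replicate 2 (22.3). With the window from 500 bp upstream to 100 bp downstream, the highest pbs signal was 42.5, which only pbs-1 could hold. pbs-5, which encodes the chymotrypsin-like catalytic subunit, had 28.8 with its summit 23 bp downstream of its start, and its lists differed in the other direction, with 23.3 in the first and 10.2 in the second, the latter from a summit 143 bp away. The lowest was pbs-6 with 20.7, and pbs-7 had no peak in any list.

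Most of these peaks could not be assigned to the named gene alone. Of the 30 peaks, 15 had their summit inside another gene, 8 inside the gene itself and 7 between genes. The nearest start was that of another gene for 17, with a median signal of 27.6, and the gene's own for 13, with a median of 28.8. For 16 of the 30, the promoter window of at least 1 other gene held the same summit. Of the 35 genes, 20 had a gene on the opposite strand within 1000 bp upstream, and 8 had one on the same strand within 500 bp upstream. These counts of neighbours, nearest starts and shared summits were not made for all genes, so they do not mark this group. The summit lay within 250 bp of the gene's start in 43.3% of the 30 peaks, beside 42.7% over all genes with a peak. When a peak counted only for the gene with the nearest start, 25 of the 35 genes kept a peak, and their median was 18.5 beside 21.8 for all genes, so the higher median of the group did not hold under that rule. Genes for small structural RNAs (tRNA, rRNA, snRNA and snoRNA) were never within 200 bp of these summits, and the closest was 470 bp away.

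**Figure D3:**
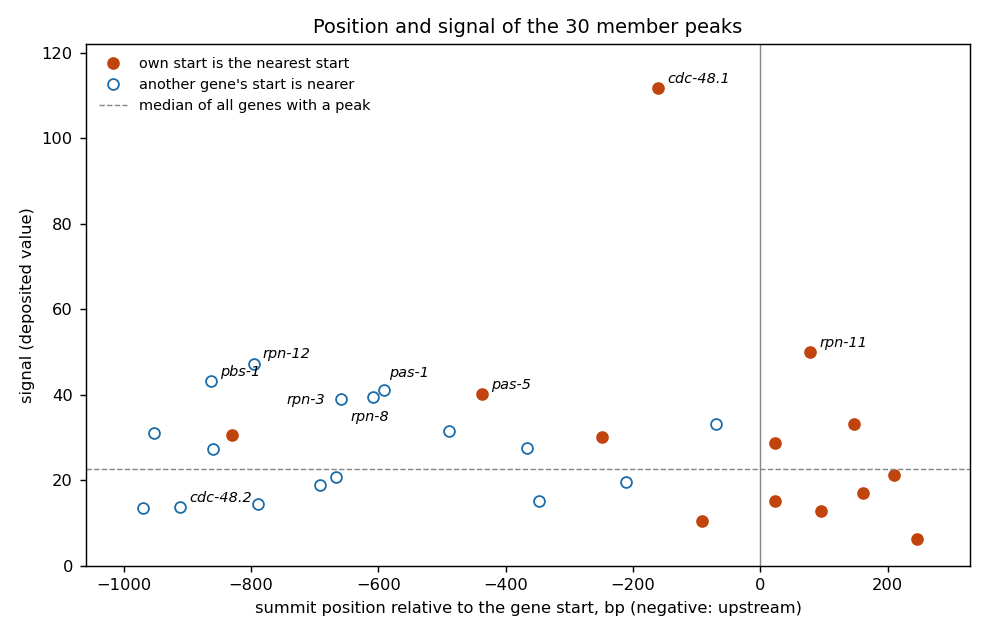
Signal (deposited value, linear axis) of the 30 peaks by the distance of the summit from the start of the gene, in bp; filled points have the gene's own start as the nearest start (13 peaks) and open points that of another gene (17). cdc-48.1 and rpn-11 are filled and lie near their starts, while rpn-12, pbs-1, pas-1, rpn-8 and rpn-3 are open and lie over 500 bp upstream.

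Of the 30 peaks, 22 had the higher signal in the second compared list (73.3%, beside 51.3% over all genes), and the medians over these peaks were 9.61 in the first list and 17.01 in the second, beside 11.2 and 11.9 over all genes. Spearman's rho between the 2 lists was 0.363 over the 30 peaks and 0.178 over all 15398 genes with a peak; the peaks share libraries and were all ranked in both lists, so this describes the lists only. The peak paired with a summit was not always the same site: in 24 of 30 both paired summits lay within 100 bp. Of the 35 genes, 20 had a ranked peak in replicate 1 (57.1%, beside 50.7% of all genes) and 22 in replicate 2 (62.9%, beside 55.1%), with medians of 14.8 and 19.5 beside 14.1 and 15.1. A peak stood in all 4 lists for 14 genes and in none for 4 (pas-4, pbs-7, rpn-2 and rpn-7). The counts over the 4 lists and of paired summits were not made for all genes, so they do not mark this group.

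**Figure D4:**
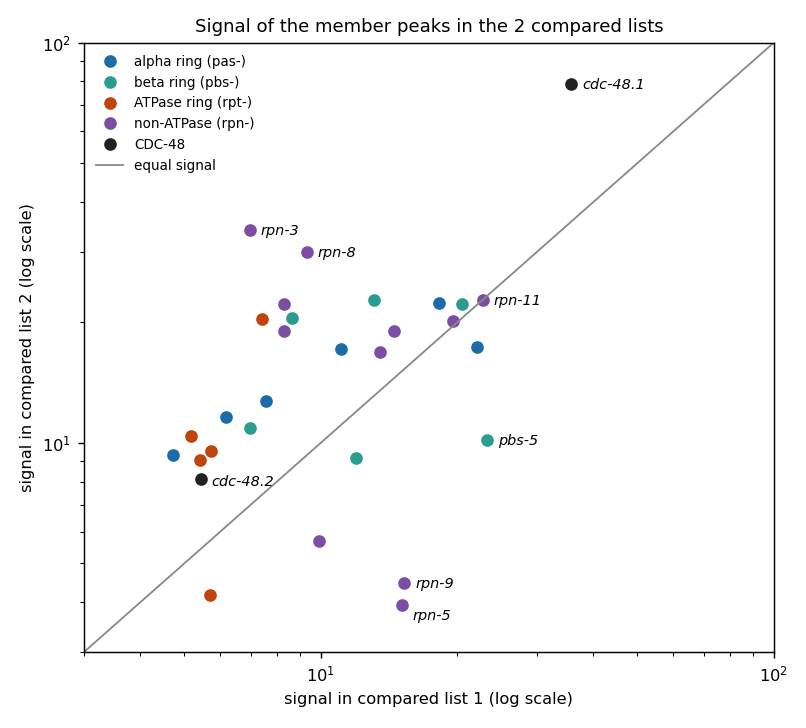
Signal of the peak paired with each of the 30 promoter peaks in the first and in the second compared list (both axes log scale); points above the line were stronger in the second list. 22 points lie above the line, with cdc-48.1 at 35.7 and 78.95 and rpn-11 on the line at 22.8 and 22.7.

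Within 50 bp of the summits, GTCT and G and C content were nearer to those at promoter peaks in general than to those at thresholded ones. GTCT or AGAC (either strand) was within 50 bp of the summit in 12 of 30 peaks, or 40%, beside 41.4% over all genes with a peak and 61.2% over the 98 genes with a thresholded peak. GCGCGC was in 0 of 30, beside 1.45% and 20.4%. A count of 0 in 30 says only that these letters were not in those windows. The median G and C content was 40.6% ± 9.86 (SD over 30 peaks), beside 38.6% ± 8.91 over all genes with a peak and 51.5% ± 8.21 over the 98. The cdc-48.1 peak, at 38.6% G and C, was in the lower range of the thresholded peaks, where 9 of the 98 had less. In the 300 bases from 250 before to 50 after the outermost start, GTCAT or ATGAC was present in 20 of the 35 genes, or 57.1%, beside 39.5% of all promoters of that length and 40.8% of those of the 98 genes. ATCAT or ATGAT, which shares letters with the former where they overlap, was in 20 of 35, or 57.1%, beside 55.6% and 46.9%. GTCT or AGAC was in 30 of 35, or 85.7%, beside 77.03% of all promoters and 88.8% of those of the 98. GCGCGC was in 5 of 35, or 14.3%, beside 3.57% of all promoters and 14 of the 98, the same 14.3%. In this longer window the shares with the SMAD core and with GCGCGC were thus nearer to those of the thresholded genes. Median G and C content was not: it was 34.3% for the members and for all promoters, beside 38% for the 98. Within 100 bp of the summits, GTCT or AGAC was in 70%, beside 64.4% over all genes with a peak and 79.6% over the 98. GCGCGC was there in 3.33%, beside 2.55% and 28.6%, and median G and C was 39.8%, beside 38.3% and 47.5%. No difference was tested. These are matches of letters, not sites shown to be bound.

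The other genes of ubiquitin-dependent degradation gave 1 thresholded peak. In a list of 29 genes for ubiquitin, its activating enzyme, CDC-48 cofactors, shuttles and the SKN-1 pathway, 25 had a ranked promoter peak, with a median signal of 22.1, and 1 was thresholded (3.45%, beside 0.49% of all genes). It was ubxn-3, which encodes a UBX-domain cofactor of CDC-48, with a signal of 66.1 at an IDR of 0.00668 and 29.6 and 35.9 in the compared lists (chrII:220148-220471). Its summit lay 173 bp upstream of its start, and 57 of the 101 bases centred on it are annotated as coding. Neither replicate alone called it, and the pooled list did. skn-1 came next with 47.9 at an IDR of 0.136, followed by aip-1 with 37.4 and the polyubiquitin gene ubq-1 with 37.1. The cofactor gene ufd-1 had 28.8, the genes that process SKN-1, ddi-1 and png-1, had 16.4 and 9.86, and npl-4.1, npl-4.2, ubh-4 and rad-23 had no ranked peak.

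Complexes built on the plan of the lid had no thresholded peak. The COP9 signalosome genes (csn-) had 0 of 6 thresholded, a median of 26.9 and a highest signal of 33.7 at csn-1, and the eIF3 genes, for a translation initiation complex with related subunits, had 0 of 11, a median of 23.7 and a highest signal of 51.5 at eif-3.C. Counts of 0 allow shares of up to 50% and 27.3% by the same limit of 3 counts, beside 0.49% of all genes. That limit is rough and too wide for lists this short. The chaperonin genes (cct-), for another large ring complex of the cytosol, had 0 of 8, which allows up to 37.5%, with a median of 19.3 and a highest signal of 55.8 at cct-8. Genes for cytosolic ribosomal proteins had 7 of 81 thresholded (8.64%, beside 0.49% of all genes): rpl-20, rpl-3, rpl-35, rps-19, rps-1, rps-24 and rpl-15, from 122.2 down to 66.6. That share lies below the limits given for the lists with a count of 0, including the 9.09% of the proteasome subunits. A share below such a limit is not a comparison of shares, so the counts were not shown to set the ribosomal list apart. The ribosomal protein genes had a median signal of 29.3, close to the 28.2 of the proteasome subunits, with quartiles of 22.2 and 39.7 beside 16.6 and 34.6. A ranked peak stood in 96.3% of them, beside 84.8% of the subunits. Of these peaks (78 and 28), 70.5% and 57.1% were above the median of all genes. The difference between these lists was not tested.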

How the data were processed

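Immunoprecipitated DNA from 2 biological replicates of 1 group was sequenced by the authors, who deposited peak lists on ce11, per the labels and the texts deposited with them; aligner and peak caller were not given in the sources used here. Each list gives a signal per peak, as deposited by the authors, whose scaling for depth is not given, and the ranked lists give the −log10 of the IDR, also deposited. The true-replicate list carries the pooled signal at cdc-48.1, not a mean of the replicates. The thresholded lists used 1 further annotation file, not analysed here. Depth per sample is unknown, so no interval that needs it is given.

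Genes and starts came from Ensembl release 115 (WBcel235, the same assembly; all peaks ended within its chromosomes) and sequence from RefSeq. Coordinates count from 1. Peaks were assigned to genes in Python 3.11.15 with pandas 2.3.3, a step tested on simulated data. A gene counted as called where any thresholded peak had its summit in the window. Compared list 1 shared coordinates and signal with replicate 1 at 42903 peaks and with replicate 2 at none, and compared list 2 with replicate 2 at 42352. The genes named are the cdc-48 pair, members called in any list or at an IDR of 0.1 or less, the 2 highest and the lowest of each subunit group, members without a peak, and the leading genes of the other lists; further members were chosen after their values were seen. Genes and lists were chosen with earlier results of these data known. Alternatives were other lists, windows, starts, thresholds and assignment rules.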

Additional observations from a re-analysis of the deposited data

How the results depend on the processing

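The thresholded peak at cdc-48.1 was the 1 called member, and no subunit gene was called, with the pooled list, narrower and wider windows, the outermost start, the nearest start, overlap in place of the summit, IDR limits of 0.05 and 0.001, and paired summits within 100 bp, the last chosen after seeing the data. The cdc-48.1 peak had its summit 161 bp from the gene's only start and an IDR of 0.000705. cdc-48.1 was therefore bound to stay called under the windows, start rules, overlap rule and IDR limits. Its paired summits lay 1 and 17 bp away, so the limit of 100 bp kept it as well. The narrower window, the outermost start, the nearest start, paired summits within 100 bp and the 0.001 limit could not add a subunit gene. With replicate 1 alone the count was 0, and with replicate 2 alone 1, so leaving out a replicate gave 0 to 1. Over all genes the called share ran from 0.115% at an IDR limit of 0.001 to 1.42% at 0.05. It was 0.32% with the narrower and 0.81% with the wider window. Single-replicate lists moved the median signal of the members to between 14.8 and 19.5, from 28.2, the signal at cdc-48.1 to between 35.7 and 79.0, from 112, and the share of members with a ranked peak to between 57.1 and 62.9%, from 85.7%; signals of all genes were lower there too, with medians of 14.1 and 15.1 against 22.5. cdc-48.2 had 8.16 in replicate 1 alone and no peak in replicate 2 alone. Counting a peak only for the nearest start moved the median to 18.5, below the 21.8 of all genes. The window from 500 bp upstream to 100 bp downstream left a ranked peak for 51.4% of members, beside 53.8% of all genes, and moved cdc-48.2 to 9.34. The window from 2000 bp upstream to 500 bp downstream gave a ranked peak to 100% of members, beside 90.8% of all genes. No paired analysis was possible because there is 1 group. Read depth and the absence of an untagged sample limit all these values.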
